A study of Mus musculus with 14 samples.

Results

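The comparison described here is between the H3AcK27 regions of 3T3-L1 adipocytes that received forskolin (FSK) together with TNFα and those of the same cells that received FSK alone. The members are the 42227 regions of the FSK plus TNFα list, set against the 38684 regions of the FSK list, out of 182986 H3AcK27 regions over the 4 treatments of the series. 3T3-L1 is an established mouse fibroblast line that turns into adipocytes in a hormone cocktail, and the cells were treated after 4 days of that differentiation. All treatments lasted 1 hour. Peaks of p65 and the coactivator CRTC2 came from cells treated alike, also 1 library each. FSK was given at 10 µM, alone or with TNFα, and the other cells were untreated or received TNFα alone. Each treatment is 1 library of 1 cell line, so the differences below have no replicate check and no p-value. Intervals take regions, loci or genes as independent and do not cover variation between libraries.

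FSK switches on adenylyl cyclase and so raises cAMP, which activates protein kinase A, the factor CREB and its coactivators of the CRTC family. TNFα releases NF-κB dimers, of which p65 is the transactivating subunit, from their inhibitors in the cytoplasm. Acetylation of lysine 27 on histone H3 marks active promoters and enhancers, and it commonly spreads as a domain of several nucleosomes around bound factors. The study asked how the pathways meet on inflammatory genes of adipocytes.

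The sites below show DNA under p65 peaks inside loci whose H3AcK27 values are described later. They were picked from the loci with the highest p65 scores, the loci with the largest H3AcK27 ratios and the NF-κB response genes. Each is 30 bases of the GRCm38 reference, read 5′ to 3′ on the strand given, with the κB pattern GGGNNTTTCC in capitals (N is any base).
Gdnf, 27763 bp downstream of the start site, intergenic, chr15:7838599-7838628, plus strand: catcttaggaGGGGTTTTCCtgggttaagc
Stx8, 125676 bp downstream of the start site, in an intron, chr11:68092146-68092175, minus strand: ctcttaaggtGGGAATTTCCctaaccacag
Nfkb2, 18 bp upstream of a start site, in an annotated exon, chr19:46304716-46304745, plus strand: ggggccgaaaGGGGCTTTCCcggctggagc
Ccl2, 2354 bp upstream of the start site, in an annotated intron, chr11:82033207-82033236, plus strand: gcctcagaatGGGAATTTCCacgctcttat
Tnfaip3, 3 bp upstream of a start site, in an intron, chr10:19015403-19015432, plus strand: ttgccaacagGGGGATTTCCgatggaaatt
Tnip1, 1270 bp downstream of a start site, in an intron, chr11:54961629-54961658, minus strand: atgaggagctGGGAATTTCCctggtgtcat
Nfkb1, 2971 bp upstream of a start site, in an intron, chr3:135670760-135670789, minus strand: gggtacataaGGGACTTTCCcactgctttc
Cxcl1, 67 bp upstream of the start site, intergenic, chr5:90891164-90891193, plus strand: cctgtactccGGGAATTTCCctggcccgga
The capitals of Stx8, Ccl2, Tnip1 and Cxcl1 are the same 10 letters, GGGAATTTCC, although the summed H3AcK27 ratios of these loci ran from above to below the median of all loci.

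The libraries differed in depth before any biology. The FSK library held 9832884 tags and the FSK plus TNFα library 25729060, which is 2.62 times as many, and 48.55% and 50.90% of the tags lay in the listed regions. In the headers, the lowest count that made a 500 bp window a peak was 9 tags for FSK and 13 tags for FSK plus TNFα. On the common scale of 10000000 tags per library this is 9.15 and 5.05 normalized tags, so on this scale a window had to be denser to be listed for FSK. Each library came from many cells, and fewer cells with the mark and less of it per cell cannot be told apart. The control and TNFα libraries held 27601287 and 27966129 tags, with thresholds of 5.07 and 5.01 normalized tags. The part of depth and threshold in the weak regions was not tested.

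The cell type labels were checked at promoters (1000 bp before to 100 bp after a protein-coding start site). Of 36 adipocyte genes, 22 had a promoter region with FSK plus TNFα and 20 with FSK, among them Fabp4, Lpl, Lipe and Pparg. These are 61.1% and 55.6% of the list, against 48.9% and 46.8% of all protein-coding genes. Adipoq, Plin1, Slc2a4, Cidec, Cfd and Cebpa, which also define adipocytes, had none in any of the 4 lists. The 10 preadipocyte and matrix genes had promoter regions in 10 cases with FSK plus TNFα and 9 with FSK. Macrophage genes had promoter regions for 3 of 10 with FSK plus TNFα and 2 of 10 with FSK, with Ptprc, Adgre1 and Spi1 at 0 in both. Endothelial genes stood at 1 of 8 and 0 of 8, and muscle and neuron genes at 0 of 10 in both.

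Most listed H3AcK27 signal lay in regions that overlapped between the lists with and without TNFα. Of the FSK plus TNFα regions, 29296 overlapped an FSK region by at least 1 bp (69.4%, 95% Wilson interval 68.9 to 69.8), and these held 96.2% of the list's normalized tags. Of the FSK regions, 30197 overlapped an FSK plus TNFα region (78.1%, 77.6 to 78.5), with 95.7% of the tags. Counted in bases, the shared 60.3 Mb was 72.7% of the FSK plus TNFα regions and 82.7% of the FSK regions. With the lists cut to 38684 regions each by score, the shares came to 72.5% and 74.9%. Between the best-scored 20000, 10000 and 5000 regions of each list, overlap was lower, at 64.1%, 52.7% and 43.7% of the FSK plus TNFα regions.

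Overlap depended on how strong a region was. In the quintile of FSK plus TNFα regions with the most tags (169 or more), 99.8% were also listed with FSK, and in the quintile with the fewest (up to 10.1) only 21.6% were. The same shares of the FSK list were 99.6% and 44.5%. Regions found in one list alone were narrow and weak. The 12931 of FSK plus TNFα had a median width of 500 bp and 10.1 tags, and the 8487 of FSK had 500 bp and 15.3 tags. Regions that overlapped had median widths of 1886 and 1686 bp, with 80.5 and 76.3 tags.

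**Figure D1:**
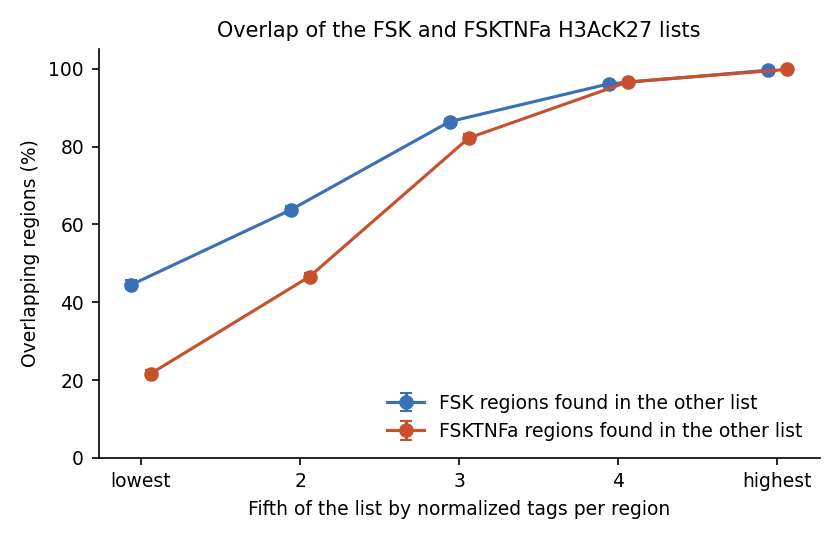
Share of regions (%) that overlapped the other list by at least 1 bp, by quintile of each list in normalized tags per region, with bars for 95% Wilson intervals. Overlap climbed from 21.6% and 44.5% in the weakest quintiles to 99.8% and 99.6% in the strongest.

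Many of the regions seen in one list were also listed in cells without FSK. Of those found with FSK plus TNFα and not with FSK, 42.0% overlapped both a control and a TNFα region, 10.4% a control region alone, 12.4% a TNFα region alone, and 35.1% neither. For regions found with FSK and not with FSK plus TNFα the shares were 49.6%, 14.5%, 7.53% and 28.4%. TNFα-list-only membership was thus more common than control-list-only membership among the first regions (12.4% against 10.4%) and less common among the second (7.53% against 14.5%), and the intervals within each pair did not overlap. Over all regions the shares were 5.70% TNFα alone and 5.65% control alone with FSK plus TNFα, and 4.01% and 5.88% with FSK, so the whole FSK list also leaned toward control. The p65 peaks of FSK plus TNFα lay in 1.12% of the 1609 regions shared with TNFα alone and in 0.222% of the 1350 shared with control alone. Over all FSK plus TNFα regions these shares were 1.49% and 0.210%, a like contrast.

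Strong regions in one list alone were few, and many of them sat close to the calling limit. Among FSK plus TNFα regions of at least 100 tags, 93 of 12980 had no FSK partner (0.716%), and all 93 overlapped a control or TNFα region. The lists require 4-fold enrichment over input, and 49.5% of the 93 were under 5-fold, against 5.70% of all such regions. The strongest was near Mdm2, the ubiquitin ligase of p53, on chromosome 10 (117714713 to 117715213), with 773 tags at 4.1-fold, where the input was 64.4 times as dense as the median region's. The next was near Jun on chromosome 4 (95141556 to 95142306), with 361 tags at 4.36-fold and an input of 18.9 times the median. Away from such dense input, the regions near St6galnac1 (359 tags), Ccdc184 (303 tags) and Lyrm9 (234 tags) had 394, 146 and 119 tags in control cells and 731, 272 and 254 with TNFα. The enrichment was 6.1-fold at St6galnac1, 5.97-fold at Ccdc184 and 4.35-fold at Lyrm9, the last close to the limit.

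The strongest FSK regions without a partner were of the same kind. Those nearest Ppp1r12a, Otogl, Cct2 and Slc35e3 held 1911, 1762, 1072 and 814 tags, lay on chromosome 10, and had inputs of 78.5, 45.6, 35.1 and 44.3 times the median. Their enrichment was between 4.04-fold and 5.02-fold. The exception was an intergenic region of chromosome X (126771258 to 126778076) near 4932411N23Rik, with 903 tags at 64.63-fold and 591 and 766 tags in control and TNFα cells.

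The median width was 1247 bp with FSK plus TNFα and 1324 bp with FSK. This order turned with equal-sized lists (1351 against 1324 bp) and at 8-fold over input (2314 against 2076 bp). The lists merged into 49856 loci, of which 28438 held a region of each and 26190 exactly 1 of each. At the shared loci the median log2 width ratio was 0.10, and the median log2 ratio of normalized tags, summed over the locus, was 0.03. The ratios below are relative to that median. Their SD over loci was 0.74, and the median counting error of a single ratio was 0.19.

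At a 2-fold limit, 1776 shared loci were higher with FSK plus TNFα (6.25%) and 2506 were lower (8.81%). Summed tags followed the listed width closely, with a Pearson correlation of 0.85 over loci, whose tags and widths come from the same reads. Of the higher loci 72.0% were at least 2-fold wider as well, and of the lower ones 33.2% were at least 2-fold narrower. Per kb, only 83 loci were 2-fold higher (0.292%) and 357 lower (1.26%), with an SD of 0.39. A ratio of summed tags therefore measures mainly how far a domain was listed, and tags per kb measure how dense it was, so per kb values stand beside most of the summed ones, except for sums by nearest gene. With at least 20 normalized tags in both lists the counts were 910 higher and 875 lower, so the excess of lower loci turned.

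**Figure D2:**
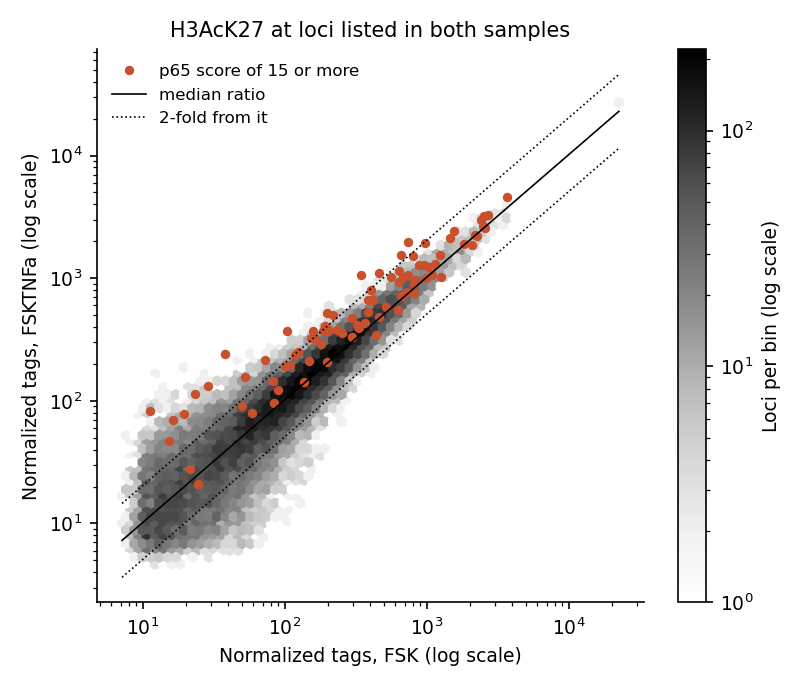
Normalized tags of the 28438 shared loci with FSK (horizontal) and FSK plus TNFα (vertical), both on log axes, as counts of loci per hexagon, with the median ratio as a solid line and 2-fold from it dotted. The spread is widest at low tags, and the 85 loci with a p65 score of 15 or more (orange) lie mostly above the line.

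Promoters and distal loci differed. The 9565 shared loci at promoters had a median relative log2 ratio of 0.15 (interval 0.14 to 0.15) and the 18873 distal ones -0.14 (-0.15 to -0.13), and per kb the medians were 0.18 and -0.10. Ratios were also lower at loci with little H3AcK27, and promoter and distal loci were not compared at equal level. Among loci without a p65 peak the median was -0.30 in the quintile of lowest level and 0.05 in the highest. Per kb these medians were -0.27 and 0.12. The lowest quintile, at a level of 6.65 to 24.0, lies near the listing limits, which differ between the lists. These were 9.15 normalized tags with FSK and 5.05 with FSK plus TNFα, and weak loci had to pass both. The part of these unequal limits in the low ratios of weak and distal loci was not tested. Distal loci made up most of both extremes. Promoters were 33.6% of all shared loci, 20% of the higher loci (18.2 to 22.0) and 4.23% of the lower loci (3.51 to 5.09). Over the whole lists the promoter share was 24.2% with FSK plus TNFα and 25.1% with FSK, and for regions in one list alone it was 5.34% and 3.63%. With equal-sized lists both orders turned, to 25.5% against 25.1% and to 5.65% against 5.74%. FSK plus TNFα regions covered 2227 start sites that FSK regions did not, out of 54361, and 542 were covered the other way round. Control and TNFα regions, from libraries of like depth, each covered 47.6% of start sites, against 44.7% with FSK plus TNFα and 41.6% with FSK.

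Loci with a listed p65 peak had, at the median, more H3AcK27 relative to all shared loci when TNFα was added. The p65 list of cells with FSK plus TNFα holds 4221 peaks, with 0.63% of that library's tags. Of these peaks 272 were also listed with TNFα alone. At least 1 of the 4221 peaks lay in 1177 shared loci, and 499 of these loci had a best score of 7, the lowest class. The median relative log2 ratio of the 1177 loci was 0.23 (0.20 to 0.27) summed and 0.19 (0.17 to 0.22) per kb. A p65 peak lay in 7.49% of the higher loci (6.35 to 8.81), 4.14% of all shared loci (3.91 to 4.38) and 1.24% of the lower loci (0.873 to 1.75). By density, 13 of the 83 higher loci held one (15.7%, 9.39 to 25.0) and 4 of the 357 lower loci (1.12%, 0.437 to 2.85). Most loci that were higher with TNFα thus held no listed p65 peak.

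The H3AcK27 ratio was larger where the p65 peak was stronger. Loci whose best p65 score was 7 had a median of 0.13, those at 8 to 9 had 0.23, those at 10 to 14 had 0.43 and those at 15 or more had 0.50 (0.32 to 0.78). Neighbouring classes overlapped in their intervals, except 8 to 9 against 10 to 14. Per kb the order was the same, at 0.13, 0.17, 0.29 and 0.35. Of the 85 loci in the top class, 23.5% were at least 2-fold higher and 0% were 2-fold lower, and 76 lay above the median density. The 83 of them without dense input (under 5 times the median) had medians of 0.53 and, per kb, 0.38.

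**Figure D3:**
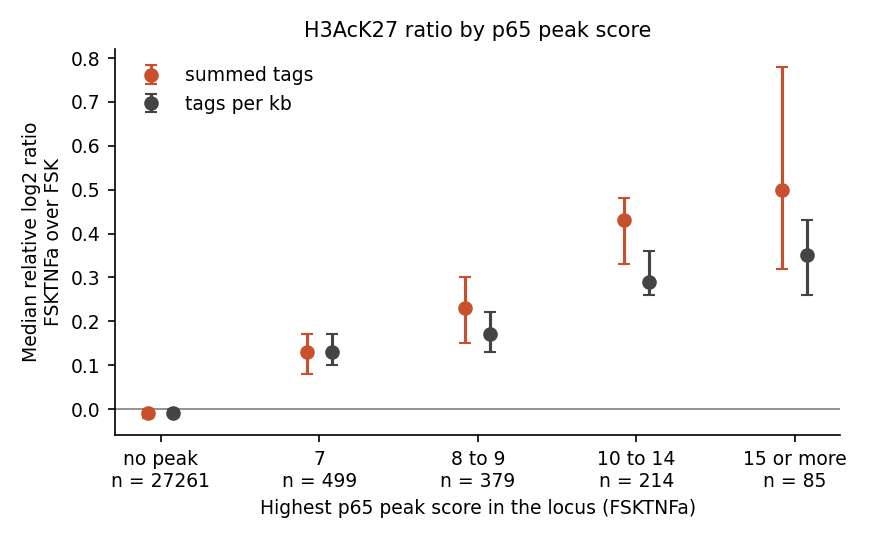
Median relative log2 ratio of H3AcK27 (FSK plus TNFα over FSK) for loci grouped by the highest p65 score inside them, with bars for the 95% order-statistic interval, from summed tags (orange) and tags per kb (grey). The medians run from -0.01 without a peak to 0.50 and 0.35 at a score of 15 or more.

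Loci with p65 were also wider and richer in H3AcK27 than others, with median FSK tags of 197 to 383 in the p65 classes against 78.3 without a peak. Compared within quintiles of H3AcK27 level, loci with a p65 peak were still above those without in each of the upper quintiles. In the quintile with the most H3AcK27 the 635 loci with p65 had a median of 0.20 (0.17 to 0.24) and the 5053 without had 0.05 (0.04 to 0.07), and per kb 0.22 and 0.12. In the next quintile above the lowest the medians were 0.76 (0.47 to 0.97, 114 loci) and -0.07, and per kb 0.22 and -0.07. In the lowest quintile, with 33 p65 loci, the interval of -0.49 to 0.06 included the median of -0.30 without p65, and per kb the medians were -0.08 and -0.27. The gap was wider at distal loci, 0.22 against -0.16, than at promoters, 0.25 against 0.14, and per kb the medians were 0.16 against -0.11 and 0.25 against 0.18.

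The p65 peaks that cells with TNFα alone also had went with higher ratios still. The 214 loci with a p65 peak found in both lists had a median of 0.49 (0.42 to 0.54), and per kb 0.34 (0.29 to 0.40), with 43 at least 2-fold higher and 0 lower, and 199 lay above the median density. The 460 loci with a p65 peak of the FSK list had a median of 0.03 (-0.02 to 0.10) summed and 0.11 (0.07 to 0.15) per kb, with 63.9% above the median density. Loci with a p65 and a CRTC2 peak that overlapped each other, both from FSK plus TNFα, numbered 414 and had a median of 0.31 (0.26 to 0.37), and per kb 0.26 (0.21 to 0.29), with 58 higher and 1 lower.

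Loci with a peak of CRTC2, the CREB coactivator, had ratios slightly above the median, and few of the lower loci held one. Of all shared loci 33.6% held a CRTC2 peak of FSK plus TNFα, against 20.1% of the higher loci and 7.10% of the lower ones. By density, 29 of the 83 higher loci held one (34.9%), close to the share of all shared loci, and 11 of the 357 lower loci (3.08%). The 9554 loci with such a peak had a median of 0.11 (0.10 to 0.11), and per kb 0.14 (0.13 to 0.15) with 66.4% above the median density. The 3580 with a CRTC2 peak listed for FSK and not for FSK plus TNFα had 0.05 (0.03 to 0.07) and per kb 0.10. The 4951 with one listed for FSK plus TNFα and not for FSK had 0.13 (0.12 to 0.14) and per kb 0.14. All shared loci at promoters had 0.15 and per kb 0.18. Loci with and without CRTC2 were not compared at equal position or H3AcK27 level.

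The κB pattern printed above was more frequent under the p65 peaks of the higher loci. It was present within 200 bp windows at 36 of 141 such peaks (25.5%, 19.1 to 33.3), at 142 of 1101 peaks in loci between the limits (12.9%, 11.0 to 15) and at 1 of 32 in lower loci (3.12%). The central 200 bp of all shared loci held it in 1.24%, searched on both strands as GGGNNTTTCC or GGAAANNCCC. Loci whose p65 window held the pattern (178) had a median ratio of 0.49 (0.40 to 0.57) and per kb 0.34 (0.28 to 0.38). Those whose p65 window lacked it (999) had 0.19 (0.15 to 0.22) and 0.17 (0.14 to 0.19). The AP-1 pattern, TGACTCA or TGAGTCA, occurred at 20.6% of p65 peaks in higher loci (14.7 to 28.0) and at 18.3% in loci between the limits (16.2 to 20.7), so its share did not differ beyond the intervals. The CRE core TGACG was at 4.96% (2.43 to 9.89) and 11.4% (9.70 to 13.5), and in the central 200 bp of all shared loci it was at 9.62% and AP-1 at 8.70%. Whole loci held κB in 20% of higher, 4.87% of lower and 13.1% of all shared loci, with median lengths of 1995, 1420 and 2147 bp. In the central 500 bp, an equal length, the shares were 6.02%, 1.52% and 2.89%.

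The loci with the highest p65 scores showed the range. Nearest genes are named for position only. At Sod2, the mitochondrial superoxide dismutase, the locus on chromosome 17 (13006874 to 13014297, spanning the promoter) had a p65 score of 40. It held 346 tags with FSK and 1068 with FSK plus TNFα, and 262 and 914 in control and TNFα cells, a relative log2 ratio of 1.60 (counting error 0.08) and 1.05 per kb. Both TNFα libraries stood clear of both others. Its p65 window does not hold the κB letters searched here. At Saa3, an acute-phase serum amyloid gene, the locus on chromosome 7 (46714048 to 46721294) had 104 tags with FSK and 372 with FSK plus TNFα, against 274 and 722 without FSK. Its ratio was 1.81 summed and 0.39 per kb.

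The locus near Gdnf, a neurotrophic factor gene, is intergenic on chromosome 15 (7836681 to 7840367) and carries the GGGGTTTTCC site. It held 162 tags with FSK and 317 with FSK plus TNFα, a ratio of 0.94 summed and 0.26 per kb, and 337 and 699.8 tags without FSK. The large domain downstream of Cebpb, 78.6 kb from that C/EBP family gene, had a p65 score of 28 and 3644 and 4591 tags, a ratio of 0.30 summed and 0.34 per kb. The loci near Tmem176b, Emc2, Vmn1r39 and Gm5475, with scores of 27 or 28, had ratios of 0.22, 0.26, 0.44 and 0.49, and per kb 0.09, 0.61, 0.27 and 0.40. The remaining loci of the top 10, near Gm10306 and Mysm1 on chromosome 4, had ratios of 0.09 and 0.02, per kb 0.29 and 0.20, and inputs of 10.9 and 20.7 times the median. The p65 windows near Gm10306, with the top score of 48, and near Vmn1r39 also hold the κB pattern, though they are not printed above.

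Ranked by ratio alone, with at least 20 normalized tags in both lists, the top 10 loci were all distal, and 1 of them held a p65 peak. That locus lies in an intron of Stx8, a membrane-fusion syntaxin, on chromosome 11 (68087710 to 68093709) and carries the GGGAATTTCC site under a p65 score of 25. It held 37.6 tags with FSK, 241 with FSK plus TNFα, 168 in control cells and 409 with TNFα. Its listed width was 1134 bp with FSK and 5999 bp with both agents, and the ratio was 2.65 summed but 0.42 per kb. The locus 136 kb upstream of Tnfaip3, on chromosome 10 (19148553 to 19154758), held 44.7 and 297 tags with FSK and with both, and 115 and 320.4 tags without FSK. The ratio was 2.70 summed and 0.34 per kb.

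Loci in introns of Cdh11 (cadherin 11) and Nrp2 (neuropilin 2) were alike. Cdh11 had 22.4 tags with FSK and 180.3 with both, and Nrp2 had 37.6 and 244, while control and TNFα cells had 140.2 and 343 at Cdh11 and 188 and 424 at Nrp2. At these 4 loci the FSK library was the lowest of the 4 libraries. The locus in Nedd4l, an E3 ligase gene, had 20.3 and 157 tags, and 279 and 872 without FSK. The remaining high loci, in introns of Rad51b, Klf13 and Hrh1 and near Trib2, had ratios of 3.58, 3.22, 2.64 and 2.66. Their control and TNFα tags differed little at the first of these, 544 and 586 for Rad51b and 1055 and 1051 for Klf13. The locus near Rap1b had a ratio of 2.75 and an input of 26.9 times the median. Per kb the 10 ratios ran from 0.04 at Hrh1 to 1.00 at Rap1b.

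The 10 lowest loci held no p65 peak. The locus in an intron of Nckap1l near Pde1b, a phosphodiesterase gene, on chromosome 15 (103495562 to 103497483) had 144 tags with FSK and 21.4 with both, and 367 and 152 in control and TNFα cells, so both TNFα libraries were below their partners. Its ratio was -2.79 and per kb -0.67. The locus upstream of Tgfa, an EGF receptor ligand gene, had 183 and 29.5 tags, and 102 and 53.3 without FSK, with a ratio of -2.66 and -0.74 per kb. The locus near Nxt1 had 137 and 20.6 tags against 12.7 and 8.58 without FSK, so that only the FSK library was high there. At Kat2b, a histone acetyltransferase gene, an intronic locus had 142 and 22.2 tags, and 158 and 147 without FSK. The others, near 1700034J05Rik, Lce1f, Poldip2, Lrrc17 and Vil1 and in Frs2, had ratios between -2.92 and -2.54, per kb between -1.07 and -0.17, and the Frs2 locus had an input of 24.7 times the median.

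The same loci were read in the pair without FSK, TNFα against control, which shares no library with the pair described. Loci higher with FSK plus TNFα over FSK had a median relative log2 ratio of 0.41 (0.38 to 0.45) for TNFα over control at the 1619 with regions in both lists, and 75.8% were above 0. Loci lower with FSK plus TNFα had -0.50 (-0.52 to -0.46) at 1945 loci, with 20% above 0. Per kb the medians were 0.18 and -0.22. Over 25726 loci the ratios of the pairs had a Pearson correlation of 0.36 and a Spearman correlation of 0.43, and per kb 0.29 and 0.31, as a description over loci that share width and position. At the 85 loci with a p65 score of 15 or more, TNFα over control had a median of 0.62 (0.51 to 0.79), and per kb 0.34, with 92.9% above 0.

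At promoters, a gene's value was the sum over all regions that touched its promoters, and 10019 of 21911 protein-coding genes had a value in both lists. The median log2 ratio was 0.18, and ratios are again relative to it. Of these genes 3.09% were at least 2-fold higher and 1.69% at least 2-fold lower, and per kb 0.140% and 0.509%.

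Genes of the NF-κB and TNF response had, at the median, more summed H3AcK27 in their promoter regions when TNFα was added, but not a clearly higher density. Of 40 listed genes 31 had a value in both lists, 6 were at least 2-fold higher, 0 were 2-fold lower and 24 were above the median of all genes. The list's median was 0.58 (0.28 to 0.77), against 0 for all genes. This list, like the others, was chosen with earlier results of these data known, so its medians, intervals and counts only describe it. Per kb the median was 0.13 (-0.04 to 0.29, which includes 0), with 0 past 2-fold in either direction and 19 above 0. Promoter regions of 25 of the 31 were wider, relative to all genes, with FSK plus TNFα than with FSK, and 28 of the 31 with TNFα than in control cells. In that second pair, with libraries of like depth, the list's median was 0.70 for tags and 0.40 for width.

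**Figure D4:**
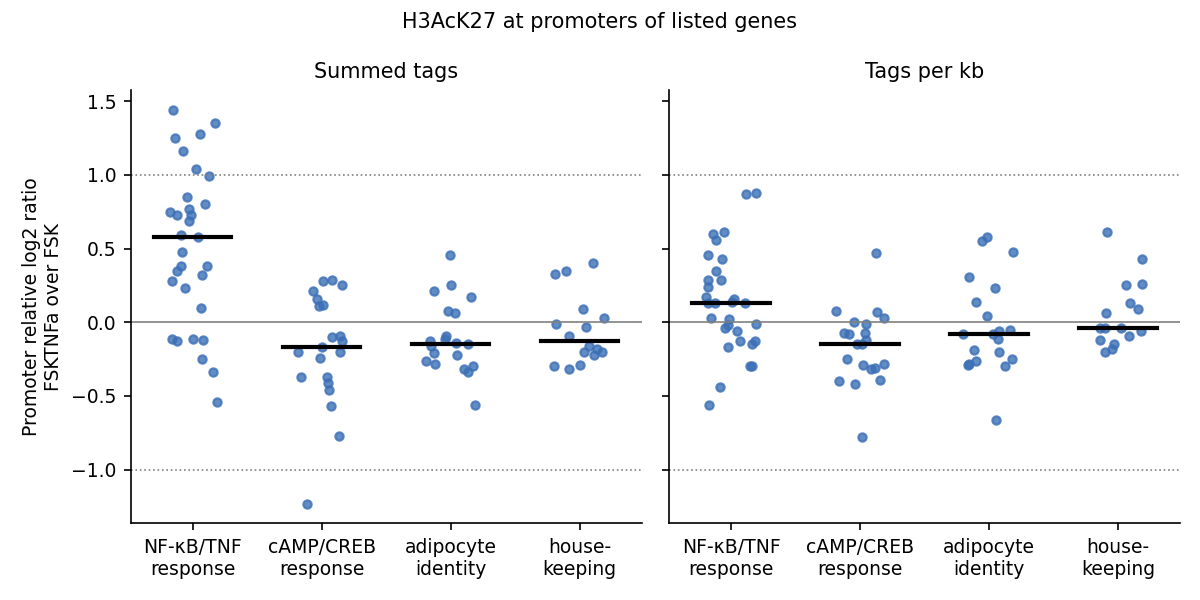
Relative log2 ratio of promoter H3AcK27, FSK plus TNFα over FSK, for each gene with a value in both lists, by summed tags (left) and tags per kb (right), with list medians as bars and the 2-fold limits dotted. The NF-κB and TNF response genes have a median of 0.58 on the left and 0.13 on the right, and the other lists lie between -0.17 and -0.04.

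The 6 genes past 2-fold were Sod2, Lcn2, Tnfaip2, Tnip1, Csf1 and Tnfaip3, with p65 peaks in the promoter regions of all but Tnfaip2. Such a peak was present at 19 of the 31 list genes with values and at 405 of all 10019 genes. Within the list the median was 0.58 for the 19 genes with a peak and 0.53 for the 12 without. Per kb these medians were 0.16 and 0.08. Sod2 stood at 1.44 summed and 0.87 per kb on the scale centred on promoters. Lcn2, the siderophore-binding lipocalin 2, had 352 tags with FSK and 1016 with both, and 389.5 and 1121 in control and TNFα cells. Its ratio was 1.35 (counting error 0.08) and per kb -0.13, and the listed width was 4678 bp with FSK, 14389 bp with both, 5587 bp in control cells and 15269 bp with TNFα. Without FSK the domain was thus also wider with TNFα. Tnfaip2, a TNF-induced gene, had 202 and 557 tags and 274 and 649 without FSK, a ratio of 1.28 (counting error 0.11) and -0.44 per kb, with widths of 2767 and 10027 bp.

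Tnfaip3 encodes A20, the deubiquitinase that shuts off NF-κB signalling, and Tnip1 its partner. Tnfaip3 had 659 tags with FSK and 1543 with both, and 952 and 2024 without FSK, a ratio of 1.04 (counting error 0.06) and 0.60 per kb. Tnip1 had 731 and 1978 tags, and 1202 and 2321 without FSK, a ratio of 1.25 and 0.35 per kb. At both genes the TNFα libraries were above both others and the FSK library was the lowest. Csf1, the macrophage growth factor, had 1161 tags with FSK, 2948 with both, 3592 in control cells and 4068 with TNFα. Its ratio was 1.16 and per kb 0.02, and here the FSK library alone was low, also in listed width. Widths were 10137 bp with FSK, 24600 bp with both, 31731 bp in control cells and 29250 bp with TNFα.

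Most genes for inhibitors and subunits of NF-κB lay above the median as well, none past 2-fold. The inhibitor genes Nfkbie, Nfkbia and Nfkbib had ratios of 0.99, 0.59 and 0.48, and per kb 0.88, 0.03 and 0.46. The atypical family members Nfkbiz and Bcl3 were near the median, at -0.11 and 0.10, and per kb -0.02 and 0.17. The subunit genes Nfkb2, Relb, Nfkb1, Rel and Rela had 0.80, 0.75, 0.58, 0.38 and 0.35, and per kb 0.24, 0.61, 0.43, 0.14 and -0.04. The signalling genes Birc3, Traf1 and Birc2 had 0.77, 0.69 and 0.32, and per kb -0.06, -0.17 and 0.29.

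Values at chemokine and cytokine genes went both ways. Ccl2, a monocyte attractant, had 798 tags with FSK and 1504 with both, and 1124 and 1723 without FSK, a ratio of 0.73 and 0.56 per kb. Lif had 749.5 and 1110 tags, and 493 and 997 without FSK, a ratio of 0.38 and 0.13 per kb. Cxcl1, the neutrophil attractant whose promoter carries the GGGAATTTCC site above, had 437 tags with FSK and 342 with both, against 343 in control cells and 511 with TNFα. Its ratio was -0.54 (counting error 0.08) and -0.15 per kb, against 0.45 for TNFα over control. On the scale of all shared loci the Cxcl1 locus had -0.38 summed and 0.03 per kb. Regions nearest to Cxcl1 within 100 kb summed to 2343 tags with FSK and 2719 with both, a ratio of 0.11. Il6 had 1042 tags with FSK and 939 with both, against 552 in control and 823 in TNFα cells, a ratio of -0.34 and per kb -0.56, against 0.45 without FSK. For Il6 the FSK library was the highest of the 4.

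Cxcl5 had 2544 and 2436 tags with FSK and with both, and 1836 and 2418 without FSK, a ratio of -0.25 and -0.13 per kb. The ratios of Ptgs2, the inducible cyclooxygenase, and Cebpd were -0.12 and -0.13, and per kb -0.30 and -0.01. Cxcl2 and Tnf had no promoter region in any list. Regions nearest to Cxcl2 within 100 kb gave a ratio of 0.08.

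**Figure D5:**
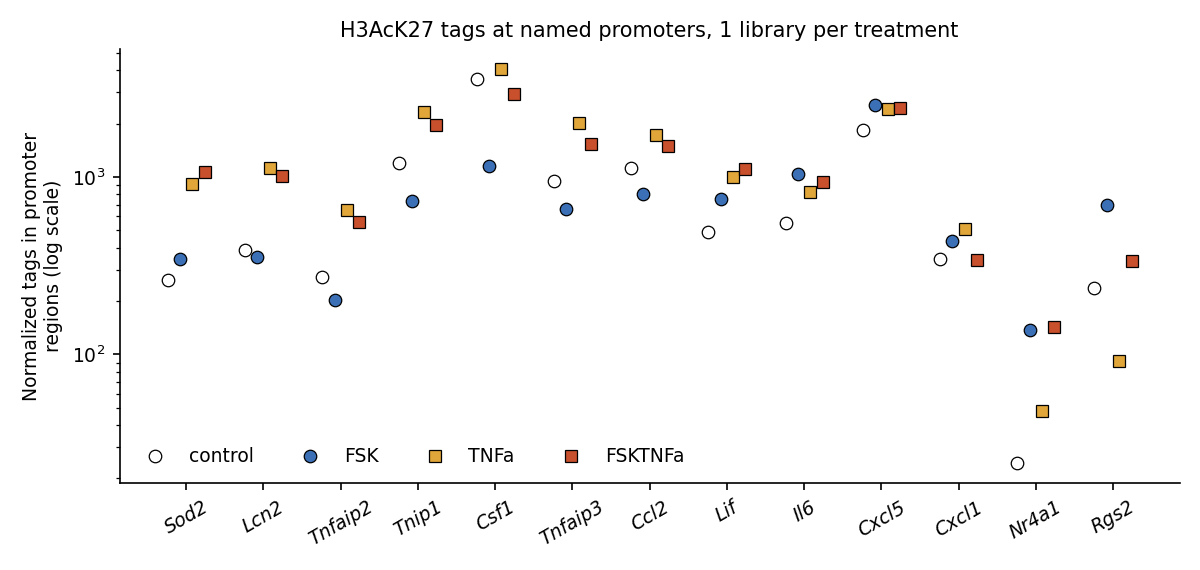
Normalized H3AcK27 tags in promoter regions (log axis) of 13 named genes in the 4 libraries, 1 point per library. Sod2, Lcn2, Tnfaip2, Tnip1, Tnfaip3, Ccl2 and Lif have both TNFα libraries above both others, while at Il6 the FSK library is highest and at Rgs2 both TNFα libraries are below their partners.

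Genes of the cAMP and CREB response were not set apart from all genes in summed tags. Of 26 listed genes 21 had a value in both lists, 0 were at least 2-fold higher, 1 was 2-fold lower and 7 were above 0, with a median of -0.17 (-0.37 to 0.12) and per kb -0.15 (-0.31 to -0.01). The exception was Rgs2, a regulator of G protein signalling, with 692 tags with FSK and 335 with both, against 237 in control cells and 91.9 with TNFα. Its ratio was -1.23 (counting error 0.07) and -0.29 per kb, and TNFα over control was -1.49. Ppargc1a, the coactivator PGC-1α, had 704 and 468 tags with FSK and with both, and 516 and 429 without FSK, a ratio of -0.77 and -0.28 per kb. Nr4a2, Crem and Pde4d followed with -0.57, -0.46 and -0.41, and per kb -0.40, -0.12 and -0.42.

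Nr4a1, an orphan receptor gene induced by cAMP, had 137 tags with FSK and 143 with both, against 24.3 in control cells and 47.9 with TNFα, a ratio of -0.13 and -0.01 per kb. The 5 highest of the list were Bhlhe40 (0.29), Gem (0.28), Pde4b (0.25), Irs2 (0.21) and Fos (0.16), and per kb they were -0.15, -0.39, -0.31, 0.08 and 0.00.

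Adipocyte genes had a median of -0.15 (-0.26 to 0.06) over 20 genes, with 0 past 2-fold and 6 above 0, and per kb -0.08. Housekeeping genes had -0.12 (-0.22 to 0.09) over 16 genes, with 0 past 2-fold, and per kb -0.04, close to the adipocyte median. Lipe, the hormone-sensitive lipase, had 161 and 124 tags, and 698 and 512 without FSK, a ratio of -0.56 and -0.11 per kb. Angptl4, a lipoprotein lipase inhibitor, had 432 and 676 tags, a ratio of 0.46 and 0.58 per kb. Sik2, the kinase that holds CRTCs in the cytoplasm, had 199 and 204 tags, a ratio of -0.15 but 0.55 per kb. Of the preadipocyte genes, Thy1 was past 2-fold at 1.37, on 10.2 and 29.9 tags (counting error 0.48, and 0.05 per kb), and Col1a1 had -0.52 and per kb -0.66. The 2 macrophage genes with values, Cd68 and Cd14, had -0.18 and 0.21, and per kb -0.04 and 0.36.

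Regions were also summed by nearest gene within 100 kb, for 11841 genes, of which 4.13% were at least 2-fold higher and 5.68% lower. NF-κB and TNF response genes had a median of 0.45 (0.21 to 0.76) over 36 genes, with 7 higher, 0 lower and 30 above 0. The cAMP and CREB response had -0.17 (-0.40 to 0.05) over 25 genes, with 0 higher and 2 lower, Areg at -2.11 and Pde3b at -1.11. Adipocyte genes had -0.02 over 26 genes with 1 lower, Pparg, at -1.24, and housekeeping genes had -0.09. Saa3 (1.74), Sod2 (1.53), Tnfaip3 (1.44), Lcn2 (1.43) and Tnip1 (1.27) led the first list. Tnfaip2 and Csf1, past 2-fold in promoter regions, were under 2-fold here, at 0.45 and 0.48. Around Tnfaip3 the nearest regions numbered 6 with FSK and 18 with both agents.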

How the data were processed

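Chromatin of differentiated 3T3-L1 cells was precipitated with an antibody to acetylated lysine 27 of histone H3 (Abcam ab4729), 1 library per treatment. Per the submitters' processing notes, reads were aligned with STAR to mm10 and regions were found with HOMER (versions not given in the sources used here). Per the file headers, windows of 500 bp were joined into regions, at least 4-fold and p of 0.0001 over an input library. The FSK and FSK plus TNFα lists share the FSK input, and the control and TNFα lists the untreated input. The signal used, the deposited Normalized Tag Count, was scaled by the authors to 10000000 tags. The deposited score ranked regions for equal-sized lists, and the deposited ratio, the fold over input, gave the input density. The deposited raw tag counts were not tested, since each treatment has 1 library. Poisson counting errors of log2 ratios came from normalized tags and the header totals.

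Lists were compared in Python 3.11.15 code (numpy, pandas, scipy), with overlaps of at least 1 bp. Overlapping regions of the lists were merged into loci, and tags were summed per list and divided by listed width for tags per kb. Start sites were those of protein-coding transcripts of GENCODE release 21 on GRCm38, the same build as mm10, and 0 of 80911 regions ended past a chromosome. Sequences came from the GRCm38 reference. Shares carry 95% Wilson intervals and medians 95% order-statistic intervals. Both take regions, loci or genes as independent, and neither covers variation between libraries. The code was tested on simulated lists. Gene lists, members and naming rules were chosen with earlier results of these data known. Named were listed genes past 2-fold, the 5 furthest in each direction of the response lists, genes the study names, the 10 highest and 10 lowest loci of at least 20 tags, the 5 strongest regions of either list alone, and the 10 loci with the highest p65 scores. Other listed genes in the text were chosen after their values were seen. Alternatives were another overlap, equal-sized lists, 8-fold over input, tags per kb, reciprocal overlap, a wider promoter, no centring, a tag minimum and the study's NF-κB motif. The control lists of p65 and CRTC2 were not used, and the CRTC2 list of TNFα alone entered no comparison.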

Additional observations from a re-analysis of the deposited data

Results flagged for a closer look

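At 34 of 98 listed genes with values in both pairs, the promoter ratio pointed in opposite directions with and without FSK. Over all protein-coding genes, with a median of 0 in each pair, 3107 of 9924 were above 0 in both. Opposite directions were thus common over all genes as well, and the 34 are not read as particular to the listed ones. At 4 of the 34 the ratios also differed by at least 1 on the log2 scale. Each pair has 1 library per treatment and the difference was not tested. Ptgs2 had -0.12 for FSK plus TNFα over FSK and 0.88 for TNFα over control. Pparg had 0.17 and -1.14, with 24.4 and 31.1 tags in the FSK pair and 202 and 100.1 in the other. The 0.17 was smaller than its counting error of 0.34. Thy1 had 1.37 and -0.61, on 10.2 to 30.4 tags. Lox had 0.58 and -0.45. In sums by nearest gene, FSK plus TNFα over FSK was -1.24 for Pparg, -0.98 for Thy1 and -0.19 for Lox. These have the sign of their promoter ratios without FSK, so the opposite direction was seen in the promoter sums only. The nearest-gene value of Ptgs2 was -0.04.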

How the results depend on the processing

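No paired analysis was possible because each treatment has 1 library, so leaving one out was not possible either. Of 66 alternatives, 28 stayed within the interval of the value reported (for counts, within 1.5 times), 37 moved and 1 reversed. The reversal was the median log2 ratio of shared loci, -0.14 per kb against 0.03 summed, and with reciprocal overlap of at least 50% it was 0.01. Called loci depended most on the measure: 83 higher and 357 lower per kb, 484 and 1259 with reciprocal overlap, and 910 and 875 with at least 20 tags in both lists. The FSK library was the shallower, and the part of depth in the weak regions was not tested.

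With overlap of 50% of the shorter region, 67.7% of FSK plus TNFα and 76.2% of FSK regions were shared. With equal-sized lists these were 72.5% and 74.9%, the median FSK plus TNFα width was 1351 bp, its promoter share 25.5% and those of regions in one list 5.65% (FSK plus TNFα) and 5.74% (FSK). At 8-fold over input, overlaps were 58.8% and 57.6% and widths 2314 and 2076 bp. Promoters of 2500 bp upstream to 500 bp downstream gave shares of 26.7% and 27.7%, and 8.70% and 6.33% for regions in one list. With equal-sized lists of the 4 treatments, FSK plus TNFα-only regions overlapped control in 42.6% and TNFα in 46.8%, and FSK-only regions in 52.7% and 48.9%. With reciprocal overlap, p65 peaks lay in 12.8% of higher loci and CRTC2 peaks in 30.2% of higher and 37.0% of all shared loci (34.3% with equal-sized lists). Per kb, the median of loci with p65 was 0.19 (this alternative was chosen after seeing the data), TNFα over control was 0.18 and -0.22 at higher and lower loci, and the NF-κB and TNF list had 0.13. The study's NF-κB motif was in 12.1% of p65 windows in higher loci, 2.54% between the limits and 1.56% of all, against 25.5%, 12.9% and 6.09% for the κB pattern. Leaving out loci with input of over 5 times the median, also chosen after seeing the data, left the p65 median at 0.23.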
